A study of Caenorhabditis elegans with 2 samples.

Results

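ChIP-seq of tagged DMD-6 in the nematode Caenorhabditis elegans gave 7338 peaks, of which 995 (13.6%) were distal intergenic peaks, far from any protein-coding gene start. A peak was a member when its summit, the position of highest signal, lay outside every protein-coding gene, more than 2000 bp from every coding start site and more than 200 bp from every tRNA gene. The stretches of chromosome IV from 4.5 to 7.0 Mb and from 13.5 to 17.2 Mb, which hold the piRNA clusters, were left out. The rule uses only the position of the summit relative to coding genes, coding starts and tRNA genes, not its signal or its sequence. Of the 7338 summits, 2784 lay inside a coding gene and 3434 lay outside but within 2000 bp of a coding start. The remaining 1120 lost 83 summits near a tRNA gene and 42 in the chromosome IV stretches.

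Chromatin immunoprecipitation followed by sequencing (ChIP-seq) was done in 1 group of worms with 2 biological replicates, and no second genotype, stage or treatment was used. All worms were of strain RJP5356, whose dmd-6 gene on chromosome IV carries a CRISPR insertion of GFP, the degron AID, a TEV site and 3xFLAG, so that the tagged protein was made from its own locus. Larvae were synchronised by starvation at the first stage after bleaching and taken at the L4 stage at 48 hours as whole organisms; sex was not recorded. The precipitation used an antibody against GFP, although another label field names dmd-6 as the antibody, and the control experiment that the labels name was not analysed here. Whole worms mix all tissues, so a peak cannot be placed in a cell type, and the labels do not say whether the replicates were grown as separate cultures. With 1 group of 2 replicates no test across samples can be made, and all p-values and intervals given here reflect only how many peaks or sequence windows were counted. The depth in reads is unknown.

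DMD-6 is a DM-domain protein, one of a family of DNA-binding proteins related to Doublesex of the fly and MAB-3 of the worm that are best known for their part in sex determination and in sex-specific development. In the compact worm genome most known regulatory elements lie close to the start of the gene they serve, and elements far from any start act as enhancers, as promoters of non-coding genes or in ways not yet known. GATA factors, which specify and maintain the worm intestine and hypodermis, bind the sequence TGATAA, and basic helix-loop-helix proteins such as MXL-3 and HLH-30, which govern fat and lysosomal genes, bind the E-box CACGTG.

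The bases from 50 bp before to 50 bp after the summit are shown for 7 distal intergenic peaks, on the plus strand of WBcel235 as given by RefSeq, each named by the coding genes on either side of the gap in which it lies. The first 3 hold the GATA core, the next 2 the E-box, the sixth a GA repeat, and the last none of these. Capitals mark the words TGATAA (or TTATCA, its other strand), CACGTG and GAGAGAG (or CTCTCTC).
asp-13 to ZC190.4 (chrV:8651555-8651655): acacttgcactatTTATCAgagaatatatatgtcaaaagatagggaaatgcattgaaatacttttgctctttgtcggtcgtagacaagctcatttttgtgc
C08E8.10 to C08E8.3 (chrV:18346215-18346315): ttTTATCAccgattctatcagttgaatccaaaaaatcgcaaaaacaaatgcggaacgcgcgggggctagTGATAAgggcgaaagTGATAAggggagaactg
mab-3 to pno-1 (chrII:9738954-9739054): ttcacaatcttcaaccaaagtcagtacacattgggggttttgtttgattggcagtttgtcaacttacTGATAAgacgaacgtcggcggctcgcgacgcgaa
T14G8.3 to bcat-1 (chrX:12872428-12872528): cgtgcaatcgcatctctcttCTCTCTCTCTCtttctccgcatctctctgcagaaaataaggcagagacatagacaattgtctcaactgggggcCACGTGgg
lpin-1 to letm-1 (chrV:13658742-13658842): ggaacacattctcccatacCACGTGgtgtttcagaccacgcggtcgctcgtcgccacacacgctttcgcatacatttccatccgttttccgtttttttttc
srw-60 to nhr-88 (chrII:2974048-2974148): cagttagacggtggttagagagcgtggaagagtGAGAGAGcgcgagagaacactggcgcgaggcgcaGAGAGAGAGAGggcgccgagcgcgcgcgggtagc
F58D12.1 to F58D12.3 (chrV:14055182-14055282): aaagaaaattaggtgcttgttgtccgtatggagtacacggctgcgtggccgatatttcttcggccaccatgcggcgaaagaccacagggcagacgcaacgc

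These 7 were picked from the strongest members and from those beside DM-domain genes. The peak between C08E8.10 and C08E8.3 holds TGATAA 3 times in this window. In the window between T14G8.3 and bcat-1, the E-box lies 3′ of a run of CT repeats on the plus strand.

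The strongest distal intergenic peaks ranked near the top of the combined list, which the authors called on both replicates together. The highest signal of that list, 1634, belonged to a peak that is no member. The authors' signal for a peak has a formula that the sources used here do not give and a scale that differs between lists, so it serves to rank peaks within a list. The strongest member, chrII:2973887-2974327, lay between srw-60, a chemoreceptor gene, and nhr-88, a nuclear hormone receptor gene whose start was 2541 bp away; its signal was 1171 in the combined list (rank 14 of 7338), 611 in replicate 1 and 549 in replicate 2. The peak at chrX:12872123-12872719 had a signal of 1093 in the combined list, 553 in replicate 1 and 504 in replicate 2. This peak spanned the non-coding gene T14G8.5, which lay 160 bp from the summit. The start of bcat-1, which encodes a branched-chain amino acid aminotransferase, was 5002 bp away. Next was chrV:1151309-1151687, at 1040, 549 and 500, inside the long non-coding RNA gene linc-128 and 4764 bp from cmd-1, the calmodulin gene. After it came chrV:8651313-8651813, at 1026, 608 and 415, which lay 8412 bp from asp-13, an aspartyl protease gene. All 4 ranked among the 28 strongest peaks of each replicate's own list.

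The next 8 members found in both replicates had signals from 799 to 926 in the combined list, from 414 to 573 in replicate 1 and from 344 to 402 in replicate 2. Their neighbours were genes of several kinds. Between T04C4.3 and fnip-2, the worm relative of folliculin-interacting proteins, the peak at chrIV:2219431-2219848 reached 875. That at chrIV:11956330-11956823 reached 869 and lay between gdh-1, glutamate dehydrogenase, and tgt-1, a tRNA-guanine transglycosylase gene. Between lpin-1, the lipin of worms, and letm-1, a mitochondrial ion exchanger, the peak at chrV:13658546-13658964 reached 799. The other 5 lay nearest to C08E8.3 (chrV:18346108-18346445, 926), irld-15 (chrV:2308235-2308663, 915), K07D4.2 (chrII:4047922-4048190, 913), F58D12.3 (chrV:14055055-14055451, 832) and R11F4.1 (chrII:4089198-4089622, 824). Distance does not assign a peak to a gene: for these 12, the nearer start was 2465 to 8412 bp away and the start on the other side up to 15490 bp away. The sequence of the peak beside K07D4.2 occurs 9 times in the genome at an identity of at least 90% over at least 80 bp, and how reads were placed among such copies is not known here.

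As a group, distal intergenic peaks were about as strong and about as often found in both replicates as all other peaks. Their signals ran from 3.68 to 1171, with a median of 139.8 and quartiles of 92.5 and 253.1. The other 6343 peaks had a median of 141.0 and quartiles of 93.5 and 229.0. Members were 85 of the 500 strongest peaks, or 8.54% of the members against 6.54% of the other peaks. A thresholded peak of both replicates overlapped 580 members by at least 1 bp, or 58.3% (95% exact binomial interval 55.2 to 61.4%). Over all 7338 peaks the share was 58.5%, and over the peaks that are not members it was also 58.5% (57.3 to 59.8%), so the members' share was at the background.

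The members that both replicates held were the stronger ones. Their median signal was 219.8 in the combined list. It was 98.1 for the 245 members found in replicate 1 only, 96.1 for the 37 found in replicate 2 only and 76.0 for the 133 found in neither. Replicate 1 held more peaks in all (6533 against 4653) and more members (825 against 617). In their own lists the members' replicate peaks had signals from 21.7 to 611 (median 107.6) in replicate 1 and from 20.98 to 598 (median 87.9) in replicate 2. The value of 598 is that of a replicate peak shared with a stronger summit that is no member, and the next highest was 549. Before the authors' threshold, 965 members (97.0%) overlapped an entry of the ranked list of both replicates, a share close to the 96.4% of all peaks. Over the 580 members the replicate signals rose together, with a Spearman rho of 0.865 against 0.828 over the 3713 other peaks found in both. These are correlations across peaks that share their libraries and are given as a description.

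**Figure D1:**
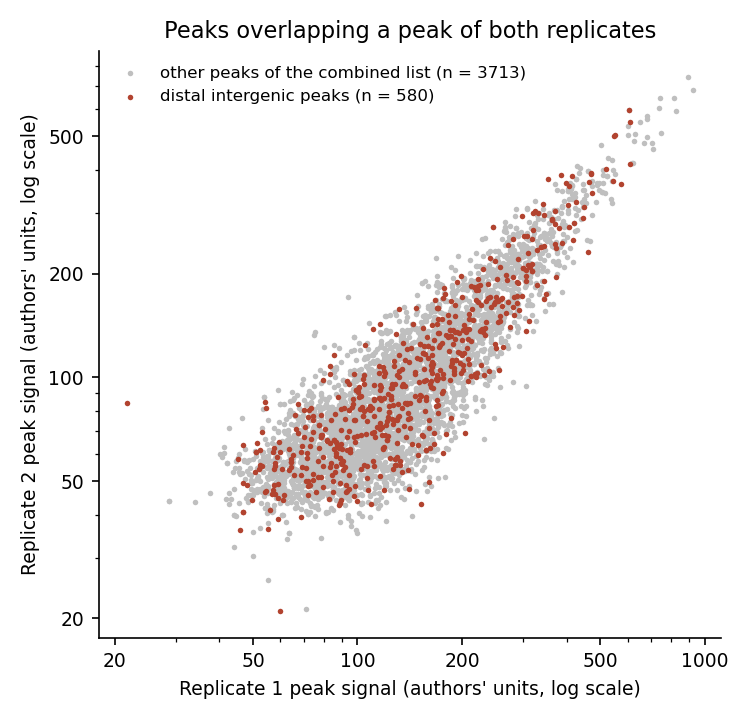
Signal of the replicate 1 peak (x axis) against that of the replicate 2 peak (y axis), both in the authors' units on log scales, for the 580 distal intergenic peaks (red) and the 3713 other peaks (grey) that overlap a peak of both replicates. The distal intergenic peaks lie in the same band as the others, and 1 member at 21.7 in replicate 1 and 84.0 in replicate 2 stands apart; it shares its replicate 2 peak with a stronger neighbour.

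A small set of weak members lay against stronger peaks. A signal under 50 was found for 54 members, and 52 of these touched another peak of the combined list. Such a member can overlap the replicate peak of its neighbour: 86 members shared their replicate 1 peak and 52 their replicate 2 peak with another peak of the combined list. An example is chrIII:10822747-10823090, 6069 bp from the start of sca-1, the calcium pump of the sarcoplasmic reticulum. It had a signal of 28.0 and shared its replicate peaks, at 159.2 and 122.9, with the member beside it, whose signal was 280.7. Counting a member as shared only where its summit lay inside a replicate peak gave 55.4% in both.

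The GATA core was the word found most often at the summits. Of 18 words searched on both strands from 50 bp before to 50 bp after each summit, TGATAA led, in 305 of the 995 windows (30.7%, 95% exact binomial interval 27.8 to 33.6%). The window of the same length 350 bp to the left held it in 9.35%, the one to the right in 9.85%, and all successive windows of the sequence that satisfies the position rule (hereafter qualifying sequence) in 8.74%. The difference from the left window passed a two-sided exact McNemar test with Benjamini-Hochberg adjustment over the words (adjusted p = 3.0e-31). The words were chosen with word counts over the whole list, members included, already known. The p-values for words and the number of words that pass are therefore descriptive. At the other peaks TGATAA was about as frequent (31.5%). Most of the 305 windows held it once (223), 82 held it 2 times or more, and the most was 4.

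The GATA core at the summits was followed by other bases than elsewhere. Of its 406 occurrences in summit windows, the next base was G in 42.9% and A in 19.0%. Of the 95 in the left windows, it was G in 14.7% and A in 38.9%, and in the right windows it was G at 8 sites (7.92%) and A at 49 (48.5%). No test was made of this difference, and occurrences in the same window are not independent. The peak between C08E8.10 and C08E8.3, printed above, holds TGATAAGG at 2 of its 3 sites.

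Of the 18 words, 6 (33.3%) were more frequent at the summit than to its left and 2 (11.1%) less frequent, at an adjusted p under 0.05. The E-box CACGTG was in 83 windows (8.34%) against 1.01% to the left and 1.38% of the windows of qualifying sequence (adjusted p = 6.4e-15, exact McNemar test), and was in 6.65% of the windows of the other peaks. The GA repeat GAGAGAG was in 98 (9.85%) against 2.01% to the left (adjusted p = 2.8e-13, exact McNemar test), and in 8.17% of those of the other peaks. Neither difference between members and other peaks was tested. In 77 of the 98 members with GAGAGAG the window touched soft-masked bases, which mark repeats and simple sequence. The same count was not made for all summit windows, so whether it is high is not known.

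Smaller excesses were found for AGATAA, a second GATA word, at 7.94% against 4.92%, for CTGTTTC, the core of the upstream motif of piRNA genes, at 3.32% against 1.11%, and for the GC box GGGCGG at 4.12% against 1.71% (adjusted p = 0.015, 0.0038 and 0.0057, exact McNemar test). At the other peaks they were in 8.86, 2.19 and 4.30% of the windows. AGATAA did not pass against the right window (6.23%, adjusted p = 0.26, exact McNemar test). The TATA box word TATAAA and runs of T were less frequent at the summit. TATAAA was in 5.03% of the summit windows against 13.4% to the left, and TTTTTTTT in 8.54% against 15.3% (adjusted p = 9.2e-10 and 6.6e-06, exact McNemar test). Base composition moved with these words: GC made up 41.998% of the summit windows, 33.4% of the left windows and 34.0% of the right ones. Its part in the word counts was not tested.

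The words that DM-domain proteins are known to bind were not among those that passed. ACATTGT, part of the palindrome known for DM-domain proteins of several animals, was in 20 summit windows (2.01%, interval 1.23 to 3.09%) and in 2.61% of the left windows (adjusted p = 0.68, exact McNemar test). AATGTTGC, part of the site of MAB-3, was in 11 (1.11%, interval 0.553 to 1.97%) against 0.905% (adjusted p = 0.93, exact McNemar test). The strongest member with ACATTGT had a signal of 446.8. The absence of a word says only that these letters were not in the window.

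**Figure D2:**
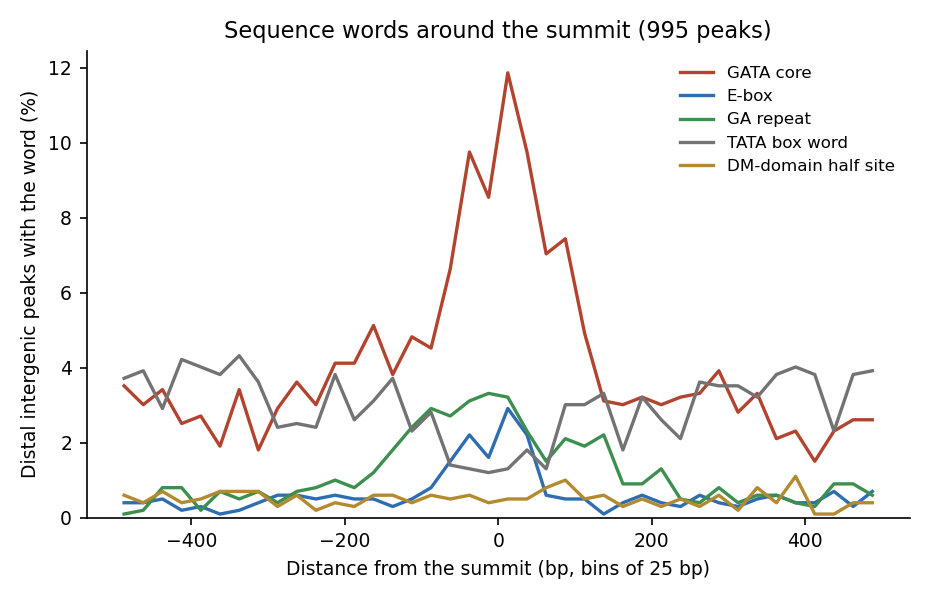
Share of the 995 distal intergenic peaks that hold a word (y axis, percent) in bins of 25 bp by distance from the summit (x axis, bp), for the GATA core, the E-box, the GA repeat, the TATA box word and the first of the DM-domain words. The GATA core rises to 11.9% beside the summit, the E-box and GA repeat form lower peaks there, the TATA box word dips and the DM-domain word stays flat.

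TGATAA and CACGTG were more frequent in the stronger members. From the fifth of members with the highest signal to the fifth with the lowest, TGATAA was in 38.7, 37.2, 30.7, 26.6 and 20.1% of the windows. CACGTG was in 14.6, 11.1, 6.03, 4.52 and 5.53%, and GAGAGAG in 10.6, 10.1, 12.1, 9.05 and 7.54%, with no steady order. Members found in both replicates held TGATAA in 34.1% and those found in neither in 20.3%. The median signal was 175.2 with TGATAA and 128.8 without, 226.6 with CACGTG and 136.2 without, and 144.6 with GAGAGAG and 138.4 without. TGATAA and CACGTG were together in 26 windows, TGATAA and GAGAGAG in 20, CACGTG and GAGAGAG in 8, and all 3 in 2. Over all 995 members, the GATA core was in 305 windows, the E-box in 83 and the GA repeat in 98. Whether the words met more or less often than these counts would give was not tested. In 561 members none of the 3 words was found. Among the 12 strongest members, 4 held TGATAA, 3 held CACGTG and 3 held GAGAGAG, with 2 of them holding both of the last, and 4 held none. These trends are descriptions across peaks, with no test.

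The median distance from a distal intergenic peak to the nearest coding start was 3343 bp. Within 2500 bp of a start there were 231 members, and 28 lay more than 10000 bp away. Qualifying sequence makes up 14.5 Mb, or 14.5% of the nuclear genome, and held 68.4 members per Mb (95% exact Poisson interval 64.2 to 72.8). The rest of the genome held 74.0 other peaks per Mb (72.2 to 75.8). From 2000 to 2500 bp from a start there were 84.2 members per Mb (73.7 to 95.8), from 3000 to 4000 bp 76.9 (67.7 to 87.0), from 5000 to 7500 bp 54.7 (46.2 to 64.4) and beyond 10000 bp 46.6 (31.0 to 67.4). The density was thus lower farther out, while signal and agreement had no steady order. The median signal was 128.9 in the nearest class and 130.5 in the farthest, with 55.8% and 57.1% in both replicates. In the classes between, the median signal ran from 134.0 to 147.4 and the share in both from 53.8 to 68.1%.

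The peaks nearest to the limit on either side were of low to middling signal. The 3 just inside had signals of 106.0 (2003 bp from a start), 76.3 (2007 bp) and 77.5 (2009 bp), and the 3 peaks just outside had 179.1 (2000 bp), 167.6 (2000 bp) and 105.3 (1999 bp). Only the first of the inside ones, chrX:351444-351787, was in both replicates, at 46.9 and 63.8, while the 3 outside were all in both. The farthest member, chrX:11244-11587, lay near the left end of X, 35517 bp from the start of Y73B3A.1, with a signal of 139.8 in the combined list, 92.9 in replicate 1 and 46.4 in replicate 2.

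Density differed with the orientation of the flanking genes. In gaps between convergent genes, whose 3′ ends face each other, there were 44.7 members per Mb (exact Poisson interval 36.5 to 54.1; 105 members). Gaps between divergent genes held 75.0 (67.0 to 83.7; 320 members) and gaps between genes in tandem 72.3 (66.4 to 78.5; 568 members). The interval of the convergent gaps overlapped neither of the others. Such intervals treat members as independent, although 560 of the 995 lay within 5000 bp of another member in the same gap. Median distances to a start were alike in the 3 kinds, at 3510, 3307 and 3336 bp, as were the median signals, at 143.2, 129.4 and 144.4. Close to a coding 3′ end, within 500 bp, lay 111 members (11.2%), against 8.20% of the qualifying sequence.

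**Figure D3:**
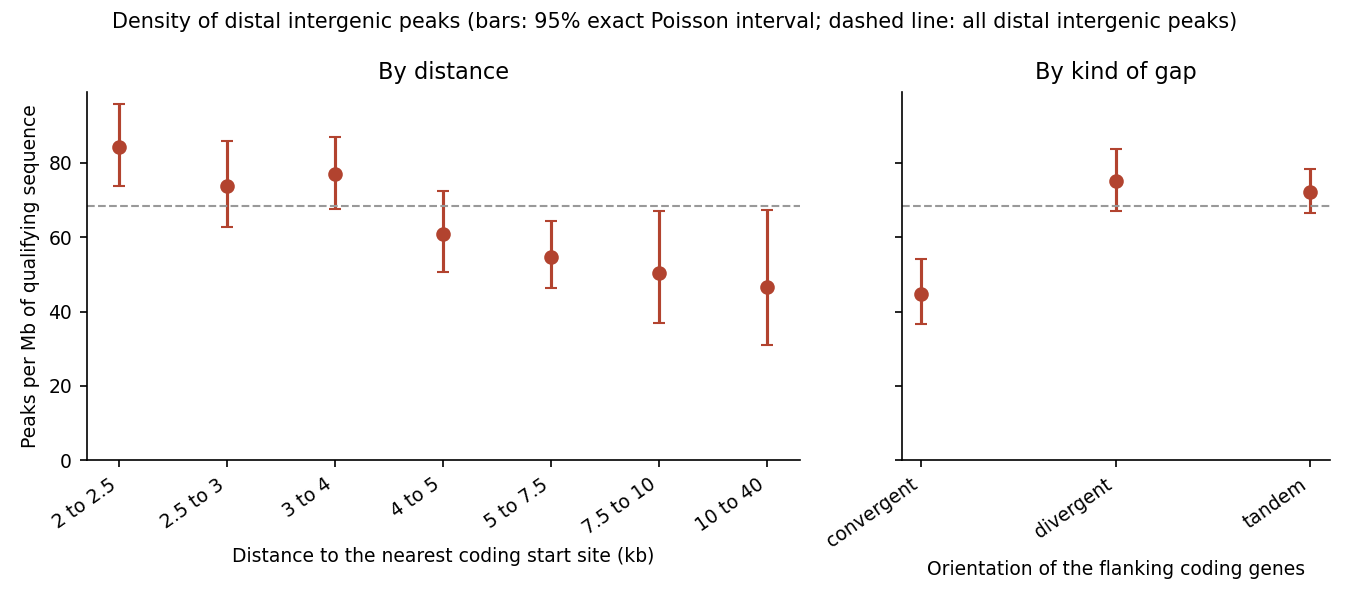
Distal intergenic peaks per Mb of qualifying sequence (y axis) by distance to the nearest coding start site (left, kb) and by the orientation of the flanking coding genes (right); points are densities, bars their 95% exact Poisson intervals, and the dashed line the density over all members, 68.4. Density falls from 84.2 next to the limit of 2000 bp to 46.6 beyond 10000 bp, and convergent gaps lie lowest at 44.7.

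Runs of distal intergenic peaks were counted within the gaps between coding genes. Of the 4445 gaps between coding genes with any qualifying sequence, 612 held a member and 410 of these held exactly 1. A run joins members of the same gap whose summits lie within 5000 bp of the next; 560 members (56.3%) were in 197 runs, and 328 of them in 81 runs of 3 or more. Neighbours in the same gap were a median of 1197 bp apart. The share in runs was not computed for the other peaks or for positions drawn from qualifying sequence. How much of it follows from the lengths of the gaps was not tested. Members in runs were found in both replicates in 60.9% (341 of 560; exact binomial interval 56.7 to 65.0%) and those alone in 54.9% (239 of 435; 50.1 to 59.7%), with overlapping intervals. Median signals were 139.7 in runs and 139.8 alone.

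The gap with the most members lay on X between F57G12.1 and cab-1, with 10 in 27973 bp. A single strong peak stood at its far end, chrX:12197418-12197707, with a signal of 659 in the combined list, 342.6 in replicate 1 and 319.0 in replicate 2. The other 9 ran from 85.2 to 142.0, and only 3 of them were in both replicates.

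The gap on chromosome II between snt-1, which encodes synaptotagmin, and egl-27, a chromatin factor gene of the MTA family, held 9 members in a stretch of 7270 bp. Their signals ran from 139.3 to 417, and all but the one nearest to egl-27 were in both replicates. That exception, chrII:6829091-6829434, had a signal of 169.0 in the combined list and 132.4 in replicate 1. The strongest, chrII:6824635-6824861, reached 417 in the combined list, 248.5 in replicate 1 and 164.9 in replicate 2.

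Of the 3 gaps with 8 members each, that between asp-13 and ZC190.4 on chromosome V had the highest signals. All 8 were in both replicates, at 383.8, 1026, 414.6, 259.2, 108.9, 314.0, 359.8 and 131.9 from left to right. The corresponding values were 262.5, 608, 267.8, 135.7, 65.4, 184.5, 179.2 and 74.4 in replicate 1 and 122.1, 415, 154.1, 126.0, 52.1, 131.6, 175.0 and 52.3 in replicate 2. The second peak was highest and the fifth lowest in all 3 lists, and 5 of the 8 held TGATAA.

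In the gap between C30G12.4 and C30G12.2 on chromosome II, 7 of 8 members were in both replicates, with signals from 101.8 to 499 and TGATAA in 5. On X, between W05H9.4 and got-2.2, an aspartate aminotransferase gene, 7 of 8 were in both, from 22.2 to 534. The weakest of these, at 22.2, shared its replicate peaks with its neighbour.

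**Figure D4:**
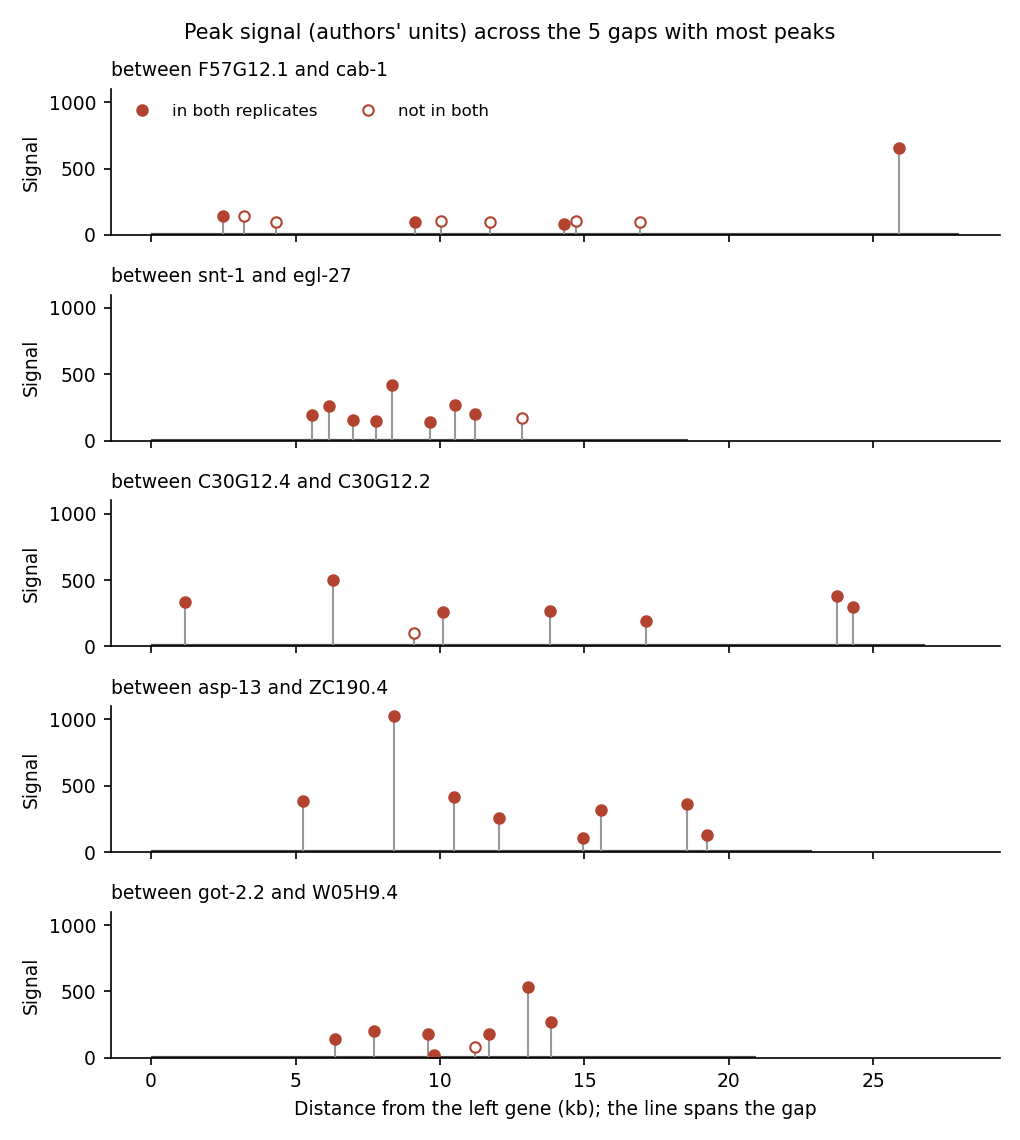
Signal in the combined list (y axis, authors' units) of each distal intergenic peak in the 5 gaps with the most members, by distance from the left coding gene (x axis, kb); filled points overlap a peak of both replicates, open points do not, and the black line spans the gap. The gap between asp-13 and ZC190.4 has 8 filled points and the highest, 1026, while that between F57G12.1 and cab-1 has 1 strong point at its right end.

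The name intergenic holds with respect to coding genes only. A non-coding gene or pseudogene lay within 200 bp of 209 summits (21.0%, exact binomial interval 18.5 to 23.7%), and 95 of these lay inside one. Over the qualifying sequence the share was 20.9%, so in total members were no closer to such genes than the sequence they were drawn from. The kinds differed among themselves. Genes annotated as ncRNA were near 140 members (14.1%, interval 11.97 to 16.4%) against 5.20% of the sequence, and small nucleolar RNA (snoRNA) genes, whose products guide the modification of ribosomal RNA, near 17 (1.71%, interval 0.998 to 2.72%) against 0.171%. Pseudogenes were near 36 (3.62%, interval 2.55 to 4.97%) against 13.9%. Long intergenic RNA genes (lincRNA) were near 22 (2.21%, interval 1.39 to 3.33%) against 1.09%.

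Of the 17 members beside snoRNA genes, 15 were in both replicates, and their median signal was 144.4. The strongest lay on chromosome I from 2514178 to 2514449, over the snoRNA gene Y23H5B.10, with a signal of 325.0 in the combined list, 199.5 in replicate 1 and 128.2 in replicate 2. MicroRNA genes were near 7 members (0.704%, interval 0.283 to 1.44%, against 0.249% of the sequence), of which 4 were in both replicates. The strongest of these, chrII:6328751-6329021, overlapped the gene of cel-mir-60, a microRNA made in the intestine, with its summit 75 bp away. The signal of this peak was 347.9, 204.8 and 135.2 in the 3 lists. Small nuclear RNA genes were near 3 members, led by a peak that overlapped M163.13 (chrX:14476764-14476933, with 178.6, 99.1 and 91.6). The other 2 had signals of 4.17 and 3.79. The single member near a piRNA gene was the strong peak chrX:13356406-13356900 (678.6, 405.8 and 273.4), which spanned that gene, 21ur-14870. The summit lay 87 bp from 21ur-14870, 5866 bp from mxl-3 and 5916 bp from C49F8.15. A single weak member, at 86.3, 58.9 and 44.8, lay in the antisense gene C02F4.12. No member had its summit within 200 bp of a ribosomal RNA gene, which allows a share of up to 0.370%. The strongest member beside a pseudogene, chrV:2308235-2308663 (915, 546 and 372), lay inside WBGene00021233.

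The coding genes nearest to the members numbered 697, of 6791 that are nearest to some qualifying sequence and of 19973 in all. Lists of genes were compared with the share of qualifying sequence that lies nearest to a start of the same list, since genes with wide gaps around them would collect more members by length alone. Genes of nuclear hormone receptors, the ligand-regulated transcription factors that are very numerous in worms, were nearest to 56 members (5.63%, exact binomial interval 4.28 to 7.25%) and to 2.10% of the sequence. The 56 lay at 28 of the 136 receptor genes with qualifying sequence, 39 were in both replicates, and their median signal was 188.9 against 139.8 over all members. Since neighbouring members share a gene, they do not count as independent.

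Besides nhr-88, the strongest receptor genes were nhr-1, nhr-20, nhr-14 and nhr-31. The peak 8103 bp from nhr-1, chrX:17505785-17506213, had a signal of 704.8 in the combined list, 419.0 in replicate 1 and 280.1 in replicate 2, and 5 weaker members from 89.6 to 215.8 lay around it. At nhr-20 the peak chrIII:4237694-4238092 had 702.7, 402.7 and 316.5, and it lay about as far from F43C1.7 (4679 bp) as from nhr-20 (4677 bp). For nhr-14 and nhr-31, whose strongest members lay 2534 and 2794 bp away, the main signals were 558.3 and 557.0. At nhr-3, on X, 5 members ran from 111.4 to 281.0, of which 3 were in both replicates. Names beyond the strongest of each list were chosen after their values were seen.

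Other transcription factor genes were nearest to 23 members (2.31%, interval 1.47 to 3.45%) against 1.15% of the sequence, at 10 genes. Their median signal was 245.4, and 16 were in both replicates. At mxl-3, a Max-like repressor of lipase genes, there were 5 members, from 62.7 to 678.6, of which 4 were in both. The others included zip-11, a bZIP factor (618.5 in the combined list, 332.1 in replicate 1 and 300.03 in replicate 2), daf-16, the FoxO factor of insulin signalling (562.9, 302.2 and 256.8), and fkh-9, a forkhead factor (524.6, 280.5 and 251.5). Further members lay beside hlh-29, a basic helix-loop-helix factor (462.3), and klf-1, a Krüppel-like factor (432.8). The sequence of the zip-11 peak occurs 9 times in the genome and that of the hlh-29 peak 2 times, and both share it with another member.

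DM-domain genes, the family of dmd-6 itself, were nearest to 4 members (0.402%, interval 0.110 to 1.03%) against 0.195% of the sequence. The strongest, 3457 bp from dmd-7, had a signal of 610.6 in the combined list, 371.1 in replicate 1 and 242.8 in replicate 2, and held AGATAA. That beside dmd-8 had 535.0, 344.8 and 190.7, and that beside mab-3, which acts in the male tail and intestine, had 401.0, 222.4 and 184.3. Both held TGATAA. Another one near dmd-7 had 72.3 and was in neither replicate. dmd-6 lies in one of the stretches of chromosome IV that the rule leaves out.

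Genes of intestinal type were nearest to 6 members (0.603%, interval 0.222 to 1.31%, against 0.366% of the sequence), all at aspartyl protease genes. Of these, 3 lay at asp-13 and were those of the gap to ZC190.4. The others were at asp-1 (220.3 in the combined list, 118.4 in replicate 1 and 107.4 in replicate 2), asp-15 (97.2, in replicate 1 only) and asp-5 (11.7, in neither). Genes of Wnt and TGF-beta signalling were also nearest to 6 (0.603%, interval 0.222 to 1.31%, against 0.259%). They were led by sma-9, a Schnurri-type cofactor of the body-size pathway (530.8, 317.2 and 203.6), and sma-6, a type I receptor of the same pathway (354.6, 227.5 and 137.5). Another of the 6, a weaker summit of the same interval at sma-9, had a signal of 34.2 and shared its replicate peaks. A further member lay near daf-4, the type II receptor (174.5, in replicate 1 only).

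Lists rich in neuronal genes were nearest to few distal intergenic peaks for the qualifying sequence that lies beside them. Ion channel and receptor genes had 8 members (0.804%, interval 0.348 to 1.58%) against 4.10% of the sequence, and chemoreceptor genes 10 (1.01%, interval 0.483 to 1.84%) against 4.73%. Neuropeptide genes had 4 (0.402%, interval 0.110 to 1.03%) against 1.35%. Genes of the homeobox list as drawn up here, many of which specify neurons, had 2 (0.201%, interval 0.0244 to 0.724%) against 1.29%. Both members of that list lay near ceh-37, an Otx-type gene, at 126.7 and 98.1, each in 1 replicate only. The strongest of the ion channel and receptor list lay near npr-28, a neuropeptide receptor gene (367.2, 228.0 and 138.6). At flp-34, a neuropeptide gene, the member had 143.6, 94.7 and 47.4. The strongest of the chemoreceptor list lay 3008 bp from str-77, with 574.9 in the combined list, 337.3 in replicate 1 and 238.4 in replicate 2. It lay almost as near, at 3049 bp, to fat-5, a fatty acid desaturase gene. Axon guidance and adhesion genes had 3 (0.302%, against 0.937%), all in both replicates, led by zig-13, an immunoglobulin-domain gene (622.2, 388.6 and 244.7).

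**Figure D5:**
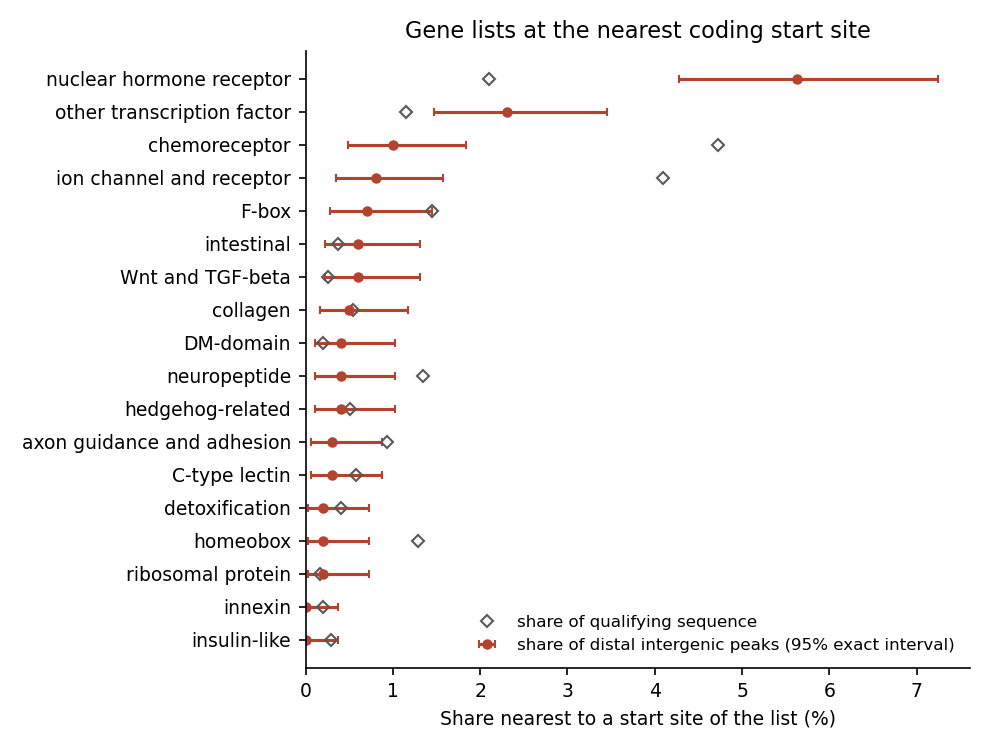
Share of the 995 distal intergenic peaks whose nearest coding start belongs to each of 18 gene lists (red points, percent, with 95% exact binomial intervals) and share of the qualifying sequence nearest to a start of the same list (open diamonds). Nuclear hormone receptor genes lie to the right of their diamond, at 5.63% against 2.10%, and chemoreceptor and ion channel genes to the left of theirs.

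The intervals of the DM-domain, intestinal, and Wnt and TGF-beta lists given above held the share of the sequence. For the remaining lists the interval held it too, except at F-box genes. These had 7 members (0.704%, interval 0.283 to 1.44%) against 1.45%, led by fbxa-30 (374.9). Collagen genes had 5 members (0.503%, against 0.546%), led by col-185 (292.0). Hedgehog-related genes had 4 (0.402%, against 0.513%), led by ptr-13 (141.5), and C-type lectin genes 3 (0.302%, against 0.580%), led by clec-62 (94.7). Detoxification genes had 2 (0.201%, against 0.401%), led by ugt-44 (389.9), and ribosomal protein genes 2 (0.201%, against 0.170%), led by rps-28 (221.5). Insulin-like genes and innexin genes had 0 of 995, which allows up to 0.370%, against 0.294% and 0.196% of the sequence.

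On X, distal intergenic peaks were not as dense as the other peaks of that chromosome. X held 291 members, 75.1 per Mb of its qualifying sequence (exact Poisson interval 66.7 to 84.3), and the autosomes 704, or 66.0 per Mb (61.2 to 71.0). The intervals overlapped. All other peaks were at 103.0 per Mb on X (97.7 to 108.5) and at 68.4 on the autosomes (66.5 to 70.3). Chromosome III had the highest density of members, 79.6 per Mb (67.4 to 93.3), and V the lowest, 54.0 (46.1 to 62.9). The other peaks were at 76.9 per Mb on III and 70.0 on V, so on V too members were less dense than other peaks. In the central part of the autosomes, 33.3% of their length, there were 81.4 members per Mb (72.0 to 91.6), and in the outer parts 58.9 (53.4 to 64.7). No density of the other peaks stands beside these values. TGATAA was in 25.1% of the members on X and in 26.3 to 37.3% of those on each autosome.

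Distal intergenic summits were in repeats less often than the qualifying sequence. Soft-masked sequence, which marks repeats, held 191 summits (19.2%, exact binomial interval 16.8 to 21.8%), against 40.1% of the qualifying sequence and 16.3% of the other peaks' summits. Copies were sought for the members only, so no share of other sequence stands beside their count. More than 1 copy in the genome, at the identity given above, was found for 53 members (5.33%), with a median signal of 115.8. Of these, 19 had 10 copies or more, with a highest signal of 187.4, and 7 of the 19 were in both replicates. Stronger members had fewer copies: those beside K07D4.2 (912.6) and zip-11 (618.5) had 9 each. Each of them shares its sequence with another member. Reads from such copies can be placed at any of them, and the sources used here do not give how the authors treated them.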

How the data were processed

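Peak lists on ce11 (WBcel235, per the labels) were the starting point. The authors deposited thresholded and ranked lists per replicate and lists called on both together; aligner, caller and depth: not given in the sources used here. The deposited signal is the authors' value per peak, scaled differently from list to list, and the deposited score, from 830 to 1000, is the authors' peak score. The combined list holds 7338 peaks, with 1 entry per summit.

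Members were found with Ensembl release 115 and the soft-masked RefSeq sequence, using Python 3.11.15, numpy 2.4.6, pandas 2.3.3 and scipy 1.17.1. Overlap with a replicate needed at least 1 bp. Words were searched on both strands from 50 bp before to 50 bp after the summit, and an exact McNemar test (two-sided) set them against a window 350 bp to the left, with Benjamini-Hochberg adjustment over 18 words. Copies were sought with BLAST 2.17.0. Intervals are exact binomial or exact Poisson at 95% and cover counting only. They treat members as independent, which members that lie close together may not be. The functions were tested on simulated data. Named peaks are the 12 strongest found in both replicates, the strongest beside each kind of non-coding gene and in each gene list, the 5 gaps with the most members and those nearest the distance limit; others were chosen after their values were seen. The members, words and lists were chosen with earlier results of these data known, including word counts over the whole list. Alternatives are listed in the closing section.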

Additional observations from a re-analysis of the deposited data

How the results depend on the processing

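The number of distal intergenic peaks was 620 to 863 when a replicate was left out, 1697 at over 1000 bp from a coding start and 349 at over 4000 bp. The share in both replicates was 64.5% in the conservative list, 65.7% at a score of 1000 and 51.5% when 50% of the member had to overlap. The share in runs was 47.6 to 53.5% when a replicate was left out, 52.7% at over 4000 bp and 46.1% when members were joined within 2000 bp. The share near a non-coding gene or pseudogene was 18.4% at over 1000 bp, 24.9% at over 4000 bp, 26.9% within 500 bp and 9.55% inside such a gene. The number of words passing was 5 at over 4000 bp and 6 to 10 when a replicate was left out, against 8. The words for the GATA core (TGATAA), the E-box, the GA repeat, the TATA box and the run of T passed in all 9 alternatives run; AGATAA no longer passed at over 4000 bp and against the right window (differences of 2.01 and 1.71 percentage points, against 3.02). CTGTTTC (1.45 and 2.58, against 2.21) and the GC box (1.77 and 2.29, against 2.41) no longer passed without replicate 1 and at over 4000 bp. The difference for TGATAA ranged from 20.3 to 25.9 percentage points. Smaller numbers of windows enter at over 4000 bp and without replicate 1. The share of masked summits ranged from 17.6 to 20.3%. No paired analysis was possible because there is 1 group. Depth is unknown, the control was not used here, and how the signal was computed is not known, so signals limit what can be compared between lists.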

Other observations

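Some distal intergenic peaks lay in highly repeated sequence. The member on II from 696774 to 697117 had 1627 copies in the genome and a signal of 79.2, with 44.7 in replicate 2 and no replicate 1 peak. On X, the members from 2057823 to 2058166 and from 1375100 to 1375443 had 718 and 679 copies; the first, with a signal of 87.9, was in neither replicate, and the second had 174.2 in the combined list and 102.1 and 68.2 in replicates 1 and 2.

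An interval on III from 4281897 to 4282615 held more than 1 summit. The summit that met the rule had a signal of 320.3 in the combined list, while the replicate peaks it overlapped reached 604.7 and 597.9. It shared both with the stronger summit of the interval, which is no member.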
